A study of Mus musculus with 12 samples.

Results

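The genes described are 36 enzymes and cofactors of sphingolipid, galactolipid and long-chain fatty acid metabolism, named by their symbols, of 18194 genes measured in mouse spinal cord. Each is read from its brightest probe set on average among those annotated to 1 symbol, and 35 of the 36 genes had one. Cers1 was not analysed here. Total RNA was hybridised to 12 one-colour Affymetrix 3' expression arrays, 3 in each of 4 groups. At day 4 the groups were Olig2cre/DA-Cat and wild type, and the same pair of genotypes was sampled at day 15. The wild-type mice are named as littermates. Olig2cre places Cre recombinase under the control of Olig2, a transcription factor gene of the oligodendrocyte and motor neuron lineages, and DA-Cat is a β-catenin that is dominantly active, β-catenin being the protein that carries canonical Wnt signals to the nucleus. No group carried Cre without DA-Cat, so effects of Cre and of DA-Cat cannot be told apart. The labels call the replicates biological and do not give the number of animals per sample. All samples are described as spinal cord injected with lysolecithin, a demyelinating agent, in ventrolateral white matter of adult mice, whereas the same labels give day 4 and day 15 as developmental stages. What the days were counted from is therefore unsettled.

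Levels are log2 signals per probe set, so a difference of 1 is a doubling, and they are not compared between genes because probe sets differ in brightness for the same amount of RNA. The median signal was 6.14 to 6.19 per array and 3.51 over bacterial controls, and arrays correlated with others of their group at a mean r of 0.994 to 0.997. Neuron markers averaged 11.67 to 11.81 in the 3 Olig2cre/DA-Cat arrays at day 15 and 11.59 to 11.64 in wild type, far above the array medians. The sample titles name spinal cord, and white matter is named as the place of injection. In whole tissue, fewer cells of a type and less RNA per cell cannot be told apart. Skeletal muscle markers were uneven, at 10.45, 5.34 and 8.34 in Olig2cre/DA-Cat arrays 1, 2 and 3 at day 15 against 6.34, 5.18 and 7.18 in wild type. At day 4 their mean levels were 5.86, 9.00 and 7.78 in Olig2cre/DA-Cat and 5.62, 8.19 and 6.39 in wild type.

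Sphingolipids are built on ceramide. Serine palmitoyltransferase joins serine to a fatty acyl-CoA, the product is reduced, a ceramide synthase adds a fatty acid whose length depends on the synthase, and a desaturase completes ceramide. In oligodendrocytes, the myelin-forming cells of the central nervous system, ceramide with very long and often hydroxylated fatty acids receives galactose and then sulfate, giving the galactosylceramide and sulfatide for which myelin is known. In neurons much ceramide instead receives glucose and is extended to gangliosides. The fatty acids are lengthened in the endoplasmic reticulum by a 4-step cycle of elongase, ketoreductase, dehydratase and enoyl reductase.

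At day 4, 8 of the 35 measured genes were lower in Olig2cre/DA-Cat than in wild type and 1 was higher, which is 25.7% of them against 3.12% of all 18194 genes called by the same rule. A gene was called when its limma adjusted p, Benjamini-Hochberg corrected over all genes, was under 0.05. Among all genes 1.81% were called lower and 1.3% higher. The 8 lower genes were Fa2h, Ugt8a and Gal3st1 of the galactolipid branch, the elongases Elovl1 and Elovl7, the ceramide synthase Cers2, the ceramide desaturase Degs1 and the sphingomyelin synthase Sgms2, and the higher one was the ceramide synthase Cers4. In all 8 lower genes the 3 Olig2cre/DA-Cat values lay below the 3 wild-type values, a pattern that the call itself favours. Over all genes, called or not, 10.3% showed it, so the 2 figures are not a like comparison. The other 26 genes differed by -0.27 to 0.28, and 4 of them had an unadjusted p under 0.05. The median difference over the 35 genes was -0.04, beside 0.03 over all genes. After quantile normalization 8 genes were lower and 0 higher.

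At day 15, 5 of the 35 genes were lower in Olig2cre/DA-Cat and 0 were higher, 14.3% of them against 2.93% of all genes called. Among all genes 2.31% were called lower and 0.616% higher. The 5 were Fa2h, Ugt8a, Elovl1, Cers2 and Degs1, and all 5 were among the 8 lower at day 4. Their genotype groups did not overlap, which the call again favours. Over all genes, called or not, 9.69% were separate in that direction. Of the 30 genes not called, 10 had an unadjusted p under 0.05, and differences ran between -0.68 for Elovl7 and 0.21 for B4galnt1. The median difference was -0.03 over the 35 genes and 0.02 over all genes. When the day 15 arrays were fitted alone, Fa2h was the 1 gene called, and 0.748% of all genes were called. The count at day 15 also turned on single arrays. Leaving out Olig2cre/DA-Cat replicate 1, 2 or 3 gave 3, 9 or 2 calls, and leaving out wild-type replicate 1, 2 or 3 gave 2, 3 or 2. In the same order, 2.06%, 5.14% and 1.64% and then 1.6%, 1.96% and 2.5% of all genes were called.

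**Figure D1:**
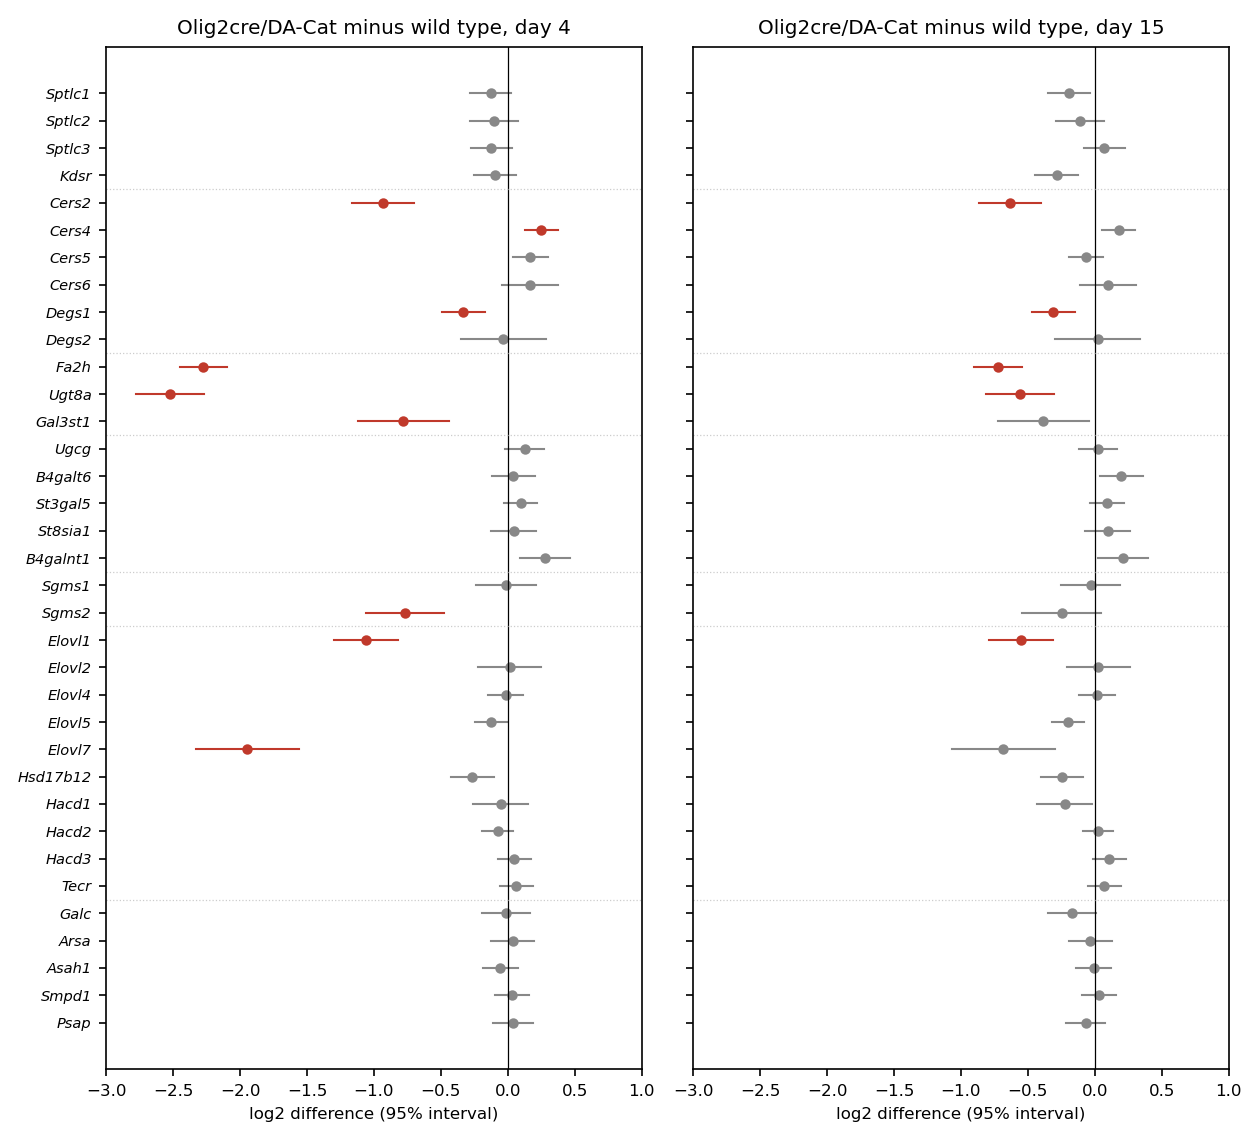
Log2 difference, Olig2cre/DA-Cat minus wild type, for the 35 measured genes at day 4 (left) and day 15 (right), ordered by step of the pathway, with dotted lines between steps. Points are fitted differences with 95% intervals and red marks an adjusted p under 0.05. The largest shifts at day 4 are those of Ugt8a (-2.53), Fa2h (-2.27) and Elovl7 (-1.95), and all of them are smaller at day 15.

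Of the 7 genes lower at day 4 that had a promoter entry in RefSeq (build GRCm38.p6), 4 are printed here because the first start listed for them leaves at least 100 upstream bases outside the annotated gene. The 4 are the galactosyltransferase and sulfotransferase genes of galactolipid synthesis, the elongase Elovl7 and Sgms2. Each sequence is the stretch upstream of the annotated gene, read 5′ to 3′ on the gene's strand, and ends just before the gene's first base. Ugt8a lies on the minus strand with this stretch at chr3:125938683-125938902, Gal3st1 on the plus strand at chr11:3983386-3983635, Sgms2 on the minus strand at chr3:131491444-131491693 and Elovl7 on the plus strand at chr13:108214154-108214325. Capitals mark CTTTGAT, a TCF/LEF-type match, and a pair of overlapping GC boxes (GGGCGG) in Ugt8a, ACAATG, a SOX-type match, in Gal3st1 and Sgms2, and a GC box (GGGCGG) in Elovl7.
Ugt8a: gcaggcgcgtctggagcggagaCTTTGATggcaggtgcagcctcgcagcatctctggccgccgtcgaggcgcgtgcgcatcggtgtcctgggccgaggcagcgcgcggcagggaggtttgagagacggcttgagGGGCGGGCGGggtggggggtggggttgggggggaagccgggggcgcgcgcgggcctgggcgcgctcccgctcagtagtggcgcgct
Gal3st1: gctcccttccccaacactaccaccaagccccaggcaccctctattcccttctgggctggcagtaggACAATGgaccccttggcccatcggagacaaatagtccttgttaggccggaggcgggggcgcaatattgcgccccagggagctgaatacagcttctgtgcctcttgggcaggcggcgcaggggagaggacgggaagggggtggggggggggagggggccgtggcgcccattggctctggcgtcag
Sgms2: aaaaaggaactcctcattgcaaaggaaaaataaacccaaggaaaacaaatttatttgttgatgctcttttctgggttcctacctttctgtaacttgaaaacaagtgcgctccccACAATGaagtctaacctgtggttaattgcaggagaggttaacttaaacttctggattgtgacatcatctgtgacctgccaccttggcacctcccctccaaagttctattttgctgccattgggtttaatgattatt
Elovl7: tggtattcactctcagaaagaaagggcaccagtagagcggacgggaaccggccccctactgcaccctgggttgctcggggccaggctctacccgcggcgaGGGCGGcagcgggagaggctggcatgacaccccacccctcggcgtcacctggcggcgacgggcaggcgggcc
Both strands of the 250 bases upstream of each start were searched, and a gene with several starts counted when any of them matched. A TCF/LEF-type match, which is CTTTGAA or the same with its last letter as T, or CTTTGTA or the same with its last letter as T, was present in 2 of the 7 lower genes, in 5 of 24 other measured enzyme genes with an entry and in 16.8% of 27025 genes. A SOX-type match (ACAAAG or ACAATG, the first of which overlaps the TCF/LEF forms starting CTTTGT read on the other strand) was present in 2 of 7, in 5 of 24 and in 28.2% of genes. A GC box (GGGCGG) was present in 5 of 7, in 19 of 24 and in 35.4% of genes. The E-box CAGCTG was present in 3 of 7, in 1 of 24 and in 14.7% of genes. A match describes letters and is not evidence of binding.

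Ugt8a and Fa2h of the galactolipid branch had the largest genotype differences at day 4 among these genes. Gal3st1, of the same branch, differed at day 4 by less than Elovl7, Elovl1 and Cers2. At day 15 the difference was largest in Fa2h, and that of Ugt8a was smaller than those of Elovl7 and Cers2. Fa2h, which encodes the fatty acid 2-hydroxylase that hydroxylates the fatty acids of galactolipids, read 7.98, 8.03 and 7.97 in Olig2cre/DA-Cat at day 4, against 10.31, 10.11 and 10.37 in wild type. At day 15 it read 11.21, 11.48 and 11.34 in Olig2cre/DA-Cat, against 12.06, 12.01 and 12.13 in wild type. The groups were separate at both days, and the gap was far wider at day 4. The difference was -2.27 (SE 0.08, adjusted p = 2.92e-08) at day 4, which left 20.7% of the wild-type signal, and -0.72 (SE 0.08, adjusted p = 0.000843) at day 15, which left 60.6%. Fa2h is a single probe set on this array.

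Ugt8a encodes the ceramide galactosyltransferase that makes galactosylceramide. It read 9.67, 9.82 and 9.43 in Olig2cre/DA-Cat at day 4, against 12.29, 12.05 and 12.16 in wild type. At day 15 the values were 12.74, 13.14 and 12.87 in Olig2cre/DA-Cat, against 13.44, 13.40 and 13.58 in wild type. No Olig2cre/DA-Cat array reached a wild-type array at either day. The difference was -2.53 (SE 0.12, adjusted p = 9.6e-08) at day 4, which left 17.4% of the wild-type signal. It was -0.56 (SE 0.12, adjusted p = 0.0225) at day 15, which left 68.0%. Both Ugt8a probe sets gave -2.53 at day 4, and they gave -0.87 and -0.56 at day 15. The day 15 call was lost, with an adjusted p of 0.0514 to 0.0904, without any single array of that day other than Olig2cre/DA-Cat replicate 2.

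Gal3st1, the cerebroside sulfotransferase that turns galactosylceramide into sulfatide, read 8.70, 8.59 and 8.60 in Olig2cre/DA-Cat at day 4, against 9.39, 9.25 and 9.59 in wild type. Its day 15 values were 9.68, 10.42 and 10.12 in Olig2cre/DA-Cat, against 10.37, 10.35 and 10.66 in wild type. The genotypes were separate at day 4 and overlapped at day 15, where Olig2cre/DA-Cat replicate 2 lay above the lower wild-type values. The day 4 difference was -0.78 (SE 0.16, adjusted p = 0.0196), or 58.2% of wild type. Its adjusted p was 0.0554 to 0.0813 when Olig2cre/DA-Cat replicate 2 or 3 or wild-type replicate 1 or 3 of day 4 was left out. The day 15 difference of -0.39 had an adjusted p of 0.237.

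**Figure D2:**
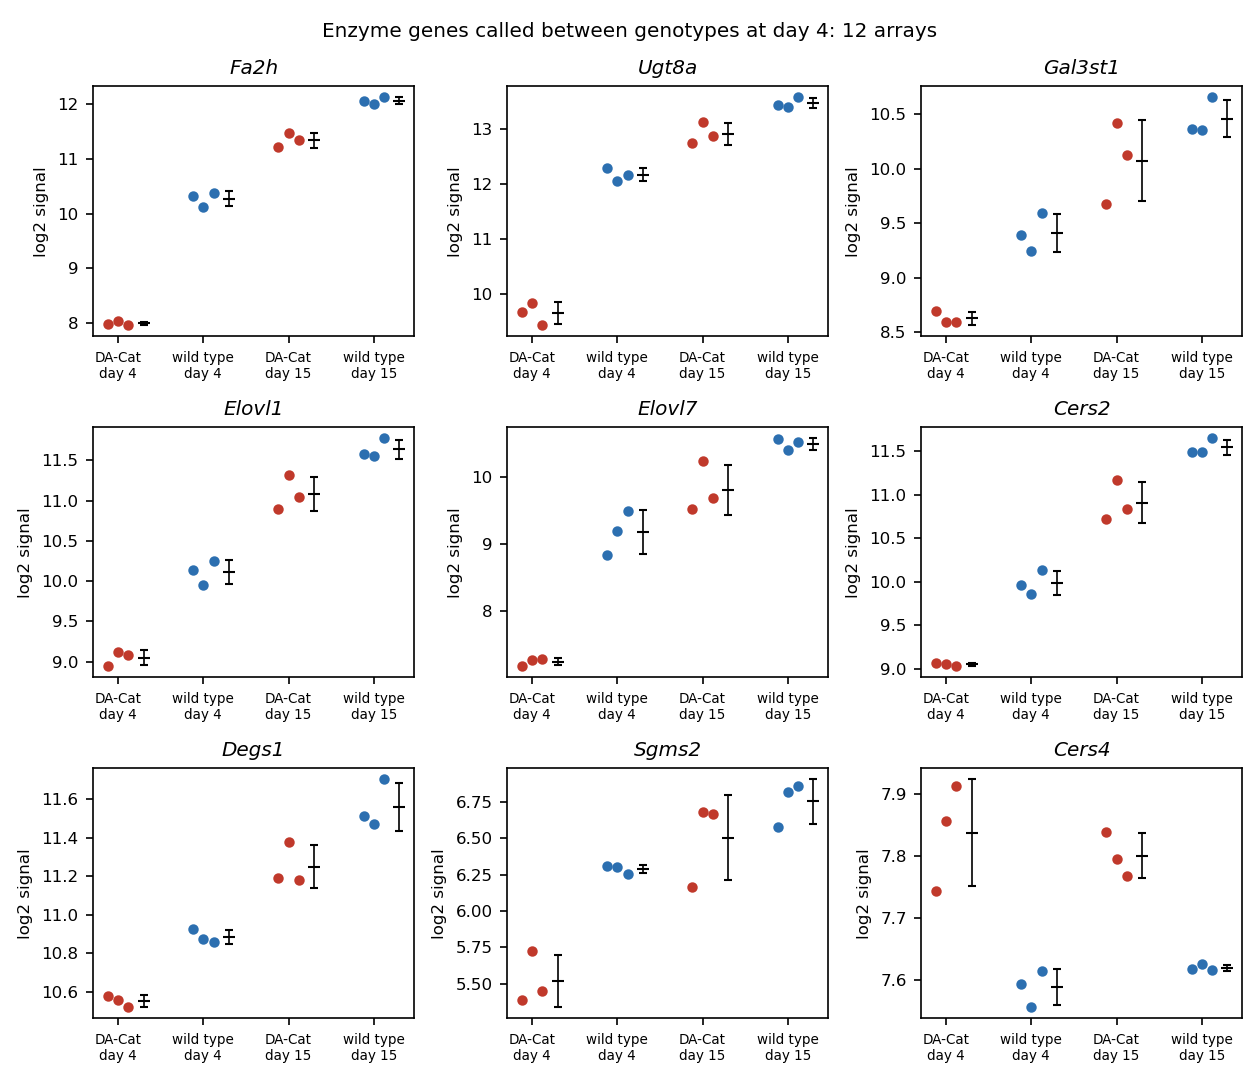
Log2 signal of the 9 genes called at day 4 on each of the 12 arrays, with 1 point per array (red, Olig2cre/DA-Cat; blue, wild type) and a bar for the group mean with SD (n = 3). Each panel has its own axis. In the 8 panels other than that of Cers4, the Olig2cre/DA-Cat mean at day 15 lies above the wild-type mean at day 4 and below the wild-type mean at day 15.

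Of the 10 genes of the elongation cycle, 2 were lower at day 4 and 1 at day 15. Elovl7, an elongase of saturated long-chain fatty acids, read 7.17, 7.25 and 7.27 in Olig2cre/DA-Cat at day 4, against 8.84, 9.20 and 9.50 in wild type. The readings at day 15 were 9.53, 10.24 and 9.69 in Olig2cre/DA-Cat, against 10.57, 10.41 and 10.52 in wild type. The groups did not overlap at either day. The day 4 difference was -1.95 (SE 0.18, adjusted p = 4.1e-05), or 25.9% of wild type, and that at day 15 was -0.68 (SE 0.18, adjusted p = 0.0624). The 6 Elovl7 probe sets ranged between -2.38 and -1.40 at day 4 and between -0.85 and -0.57 at day 15.

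Elovl1, which makes saturated and monounsaturated very long chains, read 8.95, 9.12 and 9.08 in Olig2cre/DA-Cat at day 4, against 10.13, 9.95 and 10.25 in wild type. At day 15 it read 10.89, 11.31 and 11.05 in Olig2cre/DA-Cat, against 11.58, 11.56 and 11.77 in wild type. Every Olig2cre/DA-Cat value was below every wild-type value of the same day. The difference was -1.06 (SE 0.11, adjusted p = 0.000137) at day 4 and -0.55 (SE 0.11, adjusted p = 0.018) at day 15. Olig2cre/DA-Cat thus held 47.9% of the wild-type signal at day 4 and 68.3% at day 15. The 4 Elovl1 probe sets gave -1.10 to -0.60 at day 4 and -0.64 to -0.54 at day 15. The day 15 call was lost, with an adjusted p of 0.0514 to 0.0752, without replicate 1 or replicate 3 of either genotype.

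Elovl2, Elovl4 and Elovl5 did not pass the test at either day. The differences at day 4 and day 15 were 0.01 and 0.03 for Elovl2, -0.02 and 0.02 for Elovl4 and -0.13 and -0.20 for Elovl5. Elovl2 and Elovl5 act on polyunsaturated fatty acids, and Elovl4 makes the longest chains. Among the enzymes of the later steps, the ketoreductase gene Hsd17b12 differed by -0.27 (adjusted p = 0.072) at day 4 and -0.25 at day 15. The dehydratase genes Hacd1, Hacd2 and Hacd3 lay between -0.08 and 0.05 at day 4 and between -0.23 and 0.11 at day 15. The enoyl reductase gene Tecr differed by 0.06 at day 4 and 0.07 at day 15.

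Cers2, the ceramide synthase that uses very long acyl chains, read 9.07, 9.05 and 9.03 in Olig2cre/DA-Cat at day 4, against 9.97, 9.86 and 10.13 in wild type. Its day 15 values were 10.72, 11.17 and 10.84 in Olig2cre/DA-Cat, against 11.49, 11.49 and 11.65 in wild type. The genotypes were separate at both days. The difference was -0.93 (SE 0.11, adjusted p = 0.000332) at day 4, or 52.4% of wild type, and -0.63 (SE 0.11, adjusted p = 0.00687) at day 15, or 64.5%. Cers2 is measured by 1 probe set, and its day 15 call was lost when the day 15 arrays were fitted alone (adjusted p = 0.0751).

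Cers4 was the one enzyme gene higher in Olig2cre/DA-Cat. It read 7.74, 7.86 and 7.91 in Olig2cre/DA-Cat at day 4, against 7.59, 7.56 and 7.61 in wild type. The readings at day 15 were 7.84, 7.79 and 7.77 in Olig2cre/DA-Cat, against 7.62, 7.63 and 7.62 in wild type. The groups were separate at both days, though by little. The difference was 0.25 (SE 0.06, adjusted p = 0.037) at day 4, or 119% of wild type, and 0.18 (adjusted p = 0.126) at day 15. Its 3 probe sets gave 0.16 to 0.25 at day 4, but the call was lost in 13 of 24 alternative settings, quantile normalization included (adjusted p = 0.0778).

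Cers5 and Cers6, synthases that prefer shorter acyl chains, were not called between genotypes. Cers5 differed by 0.17 at day 4 and -0.07 at day 15. Its second probe set gave -0.37 at day 4 but was dim, with a mean level of 4.30 against 10.15 for the one used. Cers6 differed by 0.16 at day 4 and 0.10 at day 15. Degs1, the desaturase that completes ceramide, read 10.58, 10.56 and 10.52 in Olig2cre/DA-Cat at day 4, against 10.93, 10.87 and 10.86 in wild type. At day 15 it read 11.19, 11.38 and 11.18 in Olig2cre/DA-Cat, against 11.51, 11.47 and 11.70 in wild type. These groups were separate but close. The difference was -0.33 (SE 0.07, adjusted p = 0.0328) at day 4, or 79.4% of wild type, and -0.31 (SE 0.07, adjusted p = 0.0441) at day 15, or 80.6%. The call was lost in 9 of 24 settings at day 4 and in 14 of 24 at day 15, the replicate block among them at both days (adjusted p = 0.0538 and 0.078). The related desaturase and hydroxylase gene Degs2, with group means of 5.10 to 5.56, differed by -0.04 at day 4 and 0.02 at day 15.

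Of the 2 sphingomyelin synthase genes, Sgms2 was lower at day 4. Sgms2, the enzyme of the plasma membrane, read 5.39, 5.72 and 5.45 in Olig2cre/DA-Cat at day 4, against 6.31, 6.30 and 6.25 in wild type. Its day 15 values were 6.17, 6.68 and 6.67 in Olig2cre/DA-Cat, against 6.58, 6.82 and 6.86 in wild type. The genotypes were separate at day 4 and overlapped at day 15. The difference was -0.77 (SE 0.13, adjusted p = 0.00824), or 58.6% of wild type, at day 4 and -0.25 (adjusted p = 0.382) at day 15. A second, dimmer probe set gave -0.35 at day 4 and 0.03 at day 15. Sgms1, the Golgi enzyme, differed by -0.01 at day 4 and -0.03 at day 15. Whether the genotype effects on the 2 genes differ was not tested.

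**Figure D3:**
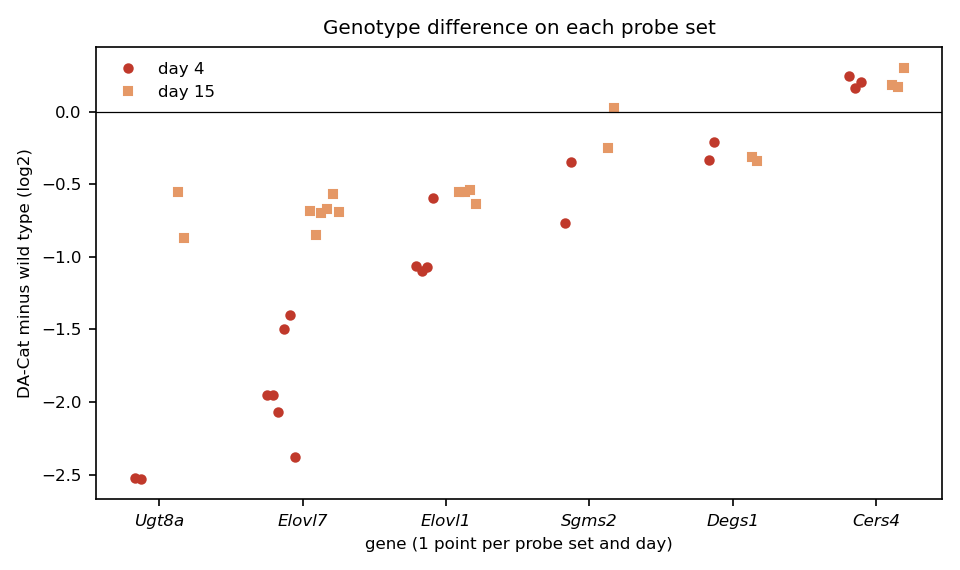
Log2 difference, Olig2cre/DA-Cat minus wild type, on each probe set of the 6 called genes that have more than 1 (red circles, day 4; orange squares, day 15). The 6 Elovl7 and 4 Elovl1 probe sets are all below 0 at both days, and the second Sgms2 probe set sits at 0.03 at day 15.

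The first steps of synthesis, with 4 genes, and the ganglioside branch, with 5, had 0 genes called between genotypes at either day. Of all genes, 3.12% were called at day 4 and 2.93% at day 15, so lists this short can often have 0 calls. The 3 serine palmitoyltransferase subunit genes Sptlc1, Sptlc2 and Sptlc3 and the reductase gene Kdsr differed by -0.13 to -0.10 at day 4 and by -0.28 to 0.07 at day 15. Kdsr was the lowest of them at day 15, with 9.21, 9.01 and 8.96 in Olig2cre/DA-Cat against 9.40, 9.27 and 9.36 in wild type. Those values were separate, and the difference of -0.28 had an adjusted p of 0.0627. The 3 Kdsr probe sets ran between -0.28 and 0.16 at day 15, so they disagreed in sign.

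In the ganglioside branch, Ugcg (glucosylceramide synthase), B4galt6 (lactosylceramide synthase), St3gal5 and St8sia1 (sialyltransferases) and B4galnt1 (an N-acetylgalactosaminyltransferase) differed by 0.04 to 0.28 at day 4 and by 0.03 to 0.21 at day 15. All 5 differences were positive at both days, against 10571 of 18194 genes at day 4 and 10058 at day 15. B4galnt1 read 8.66, 8.59 and 8.71 in Olig2cre/DA-Cat at day 4, against 8.28, 8.36 and 8.48 in wild type, a difference of 0.28 (SE 0.09, adjusted p = 0.0997). These values did not overlap, but the second B4galnt1 probe set gave -0.15 at day 4 and -0.12 at day 15. The dimmer St8sia1 probe sets were also negative, at -0.02 and -0.04 at day 4 and -0.07 and -0.03 at day 15.

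The 5 lysosomal genes of breakdown stayed within a narrow range and 0 were called, where 3.12% of all genes were called at day 4 and 2.93% at day 15. They were Galc, the galactosylceramidase deficient in Krabbe disease, Arsa, the sulfatidase deficient in metachromatic leukodystrophy, Asah1 (acid ceramidase), Smpd1 (acid sphingomyelinase) and Psap, the precursor of the saposins that present lipids to these enzymes. Differences ran between -0.06 and 0.04 at day 4 and between -0.17, for Galc, and 0.03 at day 15. At day 4 the 95% interval for Galc was -0.19 to 0.17 and that for Arsa was -0.12 to 0.20, so a change as large as that of Gal3st1 lay outside both.

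The genotype difference itself changed between the days in 2 of the 35 genes, Fa2h and Ugt8a, which is 5.71% of them against 0.352% of all genes. In Fa2h the difference was less negative at day 15 than at day 4 by 1.55 (SE 0.12, adjusted p = 9.02e-05). In Ugt8a it was less negative by 1.97 (SE 0.16, adjusted p = 0.000115). Elovl7 moved the same way by 1.26 (SE 0.25, adjusted p = 0.0633), Sgms2 by 0.52 (adjusted p = 0.389) and Elovl1 by 0.51 (adjusted p = 0.285), none of which passed the test. The change was 0.40 in Gal3st1, 0.30 in Cers2 and 0.02 in Degs1, also short of the threshold. Over the 33 genes not called it ran between -0.24 and 1.26, and the median of all 35 was 0.01, beside -0.01 over all genes. The same test called 8 of 11 myelin protein genes, all less negative at day 15, with a median change of 1.76 over the 11.

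Between day 4 and day 15 most of these genes moved in both genotypes, as did a large share of the array. In Olig2cre/DA-Cat 18 were higher and 7 lower at day 15, 71.4% of the 35 against 48.1% of all genes. In wild type 18 were higher and 5 lower, 65.7% against 44.9%. When the dimmest 50% of all genes were left out of the fit, the shares of the genes kept were close to those of the 35. They were 71.5% in Olig2cre/DA-Cat and 67.9% in wild type. The same 18 genes rose and the same 5 fell in both genotypes. By direction, the share of all genes called higher was 21.8% in Olig2cre/DA-Cat and 21.3% in wild type, and the share called lower 26.3% in Olig2cre/DA-Cat and 23.6% in wild type. The median change was 0.18 in Olig2cre/DA-Cat and 0.17 in wild type, beside 0.00 and -0.02 over all genes.

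All 8 genes lower in Olig2cre/DA-Cat at day 4 rose with day in both genotypes. Fa2h rose by 3.35 (adjusted p = 2.99e-10) in Olig2cre/DA-Cat and by 1.80 (adjusted p = 1.63e-08) in wild type, and Ugt8a by 3.28 (adjusted p = 1.43e-09) and 1.31 (adjusted p = 1.95e-06). Elovl7 rose by 2.58 in Olig2cre/DA-Cat and 1.32 in wild type, Elovl1 by 2.03 and 1.52, Cers2 by 1.86 and 1.56, and Gal3st1 by 1.44 and 1.05. Sgms2 rose by 0.99 in Olig2cre/DA-Cat and 0.47 in wild type, and Degs1 by 0.70 and 0.67. For all 8 the Olig2cre/DA-Cat mean at day 15 exceeded the wild-type mean at day 4 and stayed below the wild-type mean at day 15.

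The other 10 genes that rose in wild type were not called between genotypes. Sgms1 rose by 0.85 in Olig2cre/DA-Cat and 0.86 in wild type, Elovl5 by 0.77 and 0.84, and Hacd2 by 0.79 and 0.69. The first-step genes Kdsr, at 0.52 and 0.71, and Sptlc1, at 0.56 and 0.62, rose as well. Smaller rises were those of Degs2 (0.46 and 0.41), Hsd17b12 (0.37 and 0.35), St8sia1 (0.28 and 0.23), Smpd1 (0.19 and 0.19) and Tecr (0.18 and 0.17).

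The 5 genes that fell in both genotypes were B4galnt1 and B4galt6 of the ganglioside branch, the synthases Cers5 and Cers6, and Elovl4. B4galnt1 averaged 7.73 ± 0.13 at day 15 and 8.65 ± 0.06 at day 4 in Olig2cre/DA-Cat (SD, n = 3), a change of -0.92 (adjusted p = 2.32e-06). In wild type it averaged 7.53 ± 0.12 at day 15 and 8.37 ± 0.10 at day 4, a change of -0.85 (adjusted p = 5.49e-06). Cers6 changed by -0.80 in Olig2cre/DA-Cat and -0.73 in wild type, B4galt6 by -0.40 and -0.55, Elovl4 by -0.39 and -0.42 and Cers5 by -0.41 and -0.17, all called. Ugcg, at -0.23, and Hacd1, at -0.28, were called in Olig2cre/DA-Cat alone, and in wild type they stood at -0.13 and -0.10. Neither gene's change differed between genotypes by the test (adjusted p = 0.758 for Ugcg and 0.701 for Hacd1). The galactolipid genes thus rose while B4galnt1 and B4galt6 of the ganglioside branch fell, in each genotype. The ganglioside branch did not fall as a whole. St8sia1 rose by 0.28 in Olig2cre/DA-Cat and 0.23 in wild type, both called, and St3gal5 stood at -0.01 and -0.0002, neither called.

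**Figure D4:**
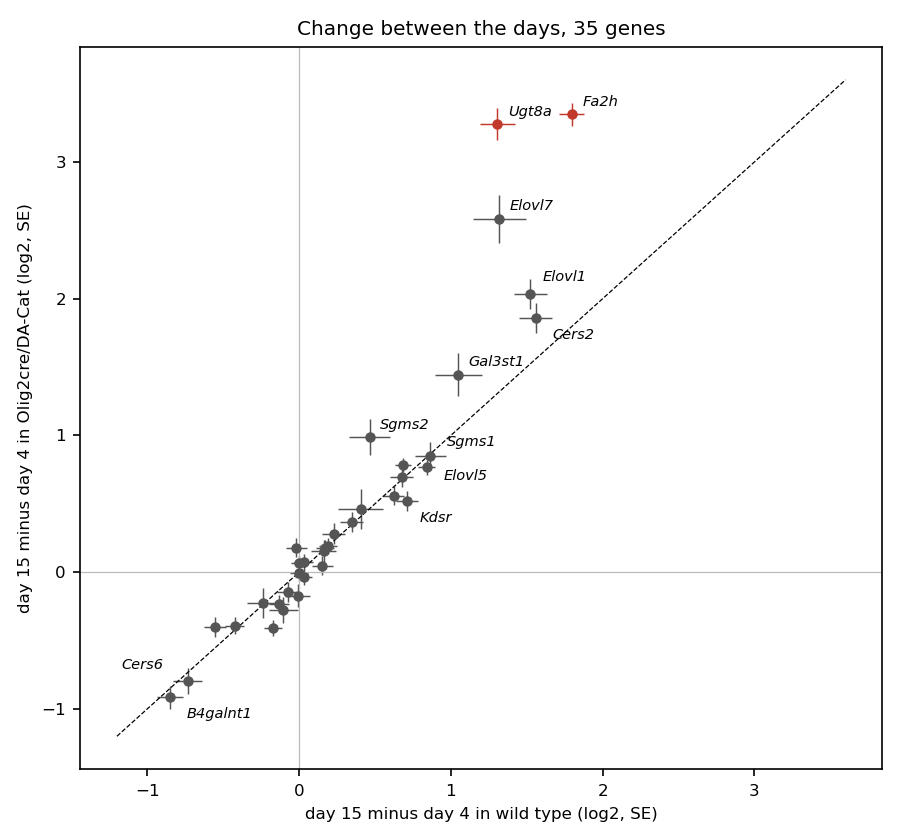
Change in log2 signal, day 15 minus day 4, of the 35 genes in wild type (horizontal) and in Olig2cre/DA-Cat (vertical), with bars of 1 SE and a dashed line of equal change. Red marks Fa2h and Ugt8a, whose changes differed between genotypes (adjusted p = 9.02e-05 and 0.000115), and Elovl7 lies next farthest above the line.

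A further list of 60 sphingolipid and long-chain fatty acid genes, none of them among the 36, had 53 measured. At day 4, 5 were lower and 2 higher in Olig2cre/DA-Cat, where 3.12% of all genes were called. The median difference over the 53 was 0.05. Gltp, the glycolipid transfer protein, averaged 9.45 ± 0.14 in Olig2cre/DA-Cat and 10.90 ± 0.05 in wild type (SD, n = 3), a difference of -1.45 (adjusted p = 6.66e-05). Scd1, a fatty acid desaturase, was lower by -0.57 (adjusted p = 0.000145) and Acsl3, an acyl-CoA synthetase, by -0.54 (adjusted p = 0.000332). Sgpp1, a sphingosine 1-phosphate phosphatase, was lower by -0.38 (adjusted p = 0.014) and the elongase Elovl6 by -0.33 (adjusted p = 0.0421). B4galt5, the other lactosylceramide synthase, was higher by 0.31 (adjusted p = 0.0326). At day 15, where 2.93% of all genes were called, 2 were lower and 1 higher, with a median of 0.01. These were Sgpp1 (-0.37, adjusted p = 0.0153), Samd8, a relative of the sphingomyelin synthases (-0.30, adjusted p = 0.0138), and the sialyltransferase gene St6galnac5 (0.28, adjusted p = 0.0362). The difference for Gltp was -0.41 (adjusted p = 0.153) at day 15. Gltp, Scd1 and Acsl3 kept their day 4 calls in 24 of 24 alternative settings, and each other call named from this list was lost when some single array was left out.

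Myelin protein genes and some astrocyte genes were also lower in Olig2cre/DA-Cat on these arrays. Of 11 myelin protein genes measured, 10 were lower in Olig2cre/DA-Cat at day 4, with a median of -2.35, and 9 at day 15, with a median of -0.65. Their mean level was 8.55 to 8.73 in Olig2cre/DA-Cat and 10.60 to 10.81 in wild type at day 4. At day 15 it was 11.94 to 12.25 in Olig2cre/DA-Cat and 12.69 to 12.77 in wild type. Ugt8a and Fa2h differed at day 4 by about the median of these genes, and the differences of the other 6 lower enzyme genes were smaller in size. Of 8 oligodendrocyte precursor genes, 5 were lower at day 4 (median -0.43) and 2 at day 15 (median -0.16). Of 8 astrocyte genes, S100b (-0.64, adjusted p = 0.00601) and Gfap (-0.41, adjusted p = 0.0418) were lower at day 4, with a list median of -0.13, and 0 were called at day 15. The mean astrocyte level was 11.25 to 11.42 in Olig2cre/DA-Cat and 11.45 to 11.57 in wild type at day 4, without overlap. The part of these cell types in the enzyme results was not tested.

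The marker lists with the largest positive median differences at day 15 were those of muscle, meninges and Schwann cells, with 1 gene past the test. Smaller positive medians were those of the 7 endothelium genes (0.15) and the 12 neuron genes (0.12, all 12 positive), with 0 called. The 10 microglia and macrophage genes had a median of -0.09, all 10 negative, with 0 called. The 12 skeletal muscle genes had a median difference of 2.16 with 0 called, the 8 meningeal and fibroblast genes 0.70 with 0 called and the 5 Schwann cell genes 0.51 with 1 called. The mean level of the meningeal list was 9.59 to 10.20 in Olig2cre/DA-Cat and 8.91 to 10.08 in wild type. That of the Schwann cell list was 8.41 to 8.67 in Olig2cre/DA-Cat and 7.76 to 8.32 in wild type. Olig2cre/DA-Cat replicate 1, with the highest muscle level of day 15, had the lowest value of its group in 7 of the 8 enzyme genes, Degs1 being the exception. Replicate 2, with the lowest muscle level of its group, had the highest value in all 8. Among the wild-type arrays of day 15, replicate 3 had the highest muscle level and also the highest value in 7 of the 8 genes, Elovl7 being the exception.

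With the muscle level as a covariate, 2 genes were called at day 15, beside 1.69% of all genes. These were Fa2h, at -0.66 (adjusted p = 0.00418), and Cers2, at -0.53 (adjusted p = 0.02). Ugt8a stood at -0.48 (adjusted p = 0.0834), Elovl1 at -0.48 (adjusted p = 0.069) and Degs1 at -0.28 (adjusted p = 0.146) in that fit. Without Olig2cre/DA-Cat replicate 1 the day 15 difference was -0.66 for Fa2h, -0.54 for Cers2, -0.47 for Ugt8a and -0.45 for Elovl1. At day 4 the covariate left 7 genes lower and 0 higher.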

How the data were processed

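Total RNA of 12 spinal cord samples was measured on 1 array each. The authors' deposited table gave a log2 signal for every probe set on every array. Background correction, probe summary and normalization are not described in the sources used here, and the log2 scale was judged from the values. No scan date was used. Of 45101 probe sets, 34958 had 1 symbol in the platform annotation, 932 several and 9211 none. Of the first, 34754 matched RefSeq (GRCm38.p6) by Entrez identifier and 0 symbols changed.

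All 12 arrays were fitted with limma 3.58.1 in R 4.3.3, using lmFit, contrasts.fit and eBayes, with 1 mean per group, without a filter, with 8 residual and 3.96 prior degrees of freedom. Two-sided p-values were adjusted by Benjamini-Hochberg over 18194 genes, and the threshold was 0.05. On simulated arrays of 18194 genes for the day 4 contrast, 67% of changes of 0.5 and 96% of changes of 1 were recovered, and 7.39% of the calls were false. In that simulation 100 genes were changed by each amount and all values were drawn independently. It holds no variation shared between genes, such as muscle level, so these rates need not hold for the real arrays. Precision is limited by the number of arrays.

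The enzyme genes, marker lists and the list of further pathway genes were chosen with earlier results of these data known. All 36 enzyme genes are named. Genes called between genotypes are given array by array, and up to 6 further pathway genes per genotype contrast by smallest p. Alternatives covered scaling, dim genes, the probe set per gene, eBayes settings, array weights, the arrays in the fit, a replicate block, a muscle covariate and leaving out each array. A covariate of Eif2s3y, a Y-linked gene, was chosen after seeing the data. Promoter sequences came from RefSeq.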

Additional observations from a re-analysis of the deposited data

Results flagged for a closer look

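The genotype difference of Fa2h changed between the days by 1.55, standing at -0.72 at day 15 and -2.27 at day 4, by the limma test of the difference itself (adjusted p = 9.02e-05). All 3 Olig2cre/DA-Cat values were below all 3 wild-type values at both days. That of Ugt8a changed by 1.97, standing at -0.56 at day 15 and -2.53 at day 4 (adjusted p = 0.000115), again with separate groups at both days. Both changes kept their sign and stayed past the threshold in 23 of 23 alternative settings, at 1.40 to 1.63 for Fa2h and 1.66 to 2.06 for Ugt8a. Such a change was not particular to these enzymes, because 8 of 11 myelin protein genes were called the same way (list median 1.76).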

How the results depend on the processing

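No called enzyme gene changed sign under any alternative setting run. At day 4, Fa2h, Ugt8a, Cers2, Elovl1 and Elovl7 were called in 24 of 24 settings and Sgms2 in 23 of 23. Gal3st1 was called in 20 of 24, Degs1 in 15 and Cers4 in 11. At day 15, Fa2h was called in 24 of 24, Cers2 in 23, Elovl1 in 18, Ugt8a in 17 and Degs1 in 10. The 5 genes called at day 15, with 2.93% of all genes called, changed in number with the setting, as did the share of all genes tested. There were 8 (5.96% of all) without the dimmest 30% of genes and 10 (9 lower, 1 higher, 9.1% of all) without the dimmest 50%. Trend and robust settings gave 8 (4.31%), and the day 15 arrays alone 1 (Fa2h, 0.748%). The muscle covariate gave 2 (1.69%) and the added Eif2s3y covariate 8 (5.11%). Leaving out 1 array gave 2 to 9 calls at day 15, 6 to 10 at day 4, 2 to 3 for the change between days, 21 to 25 for day in Olig2cre/DA-Cat and 18 to 23 for day in wild type. All 25 and 23 day calls kept their sign in every setting, and 18 of each were called in every one.

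Of the further pathway genes, the 7 calls at day 4 became 4 with the most variable probe set and 3 to 8 when 1 array was left out (3 without day 4 Olig2cre/DA-Cat replicate 2 or 3 or wild-type replicate 1, and 4 without day 4 wild-type replicate 2 or 3). The 3 at day 15 became 1 with the mean over probe sets, 1 with the most variable probe set, 0 with the day 15 arrays alone, 1 with the muscle covariate, 5 with the Eif2s3y covariate and 0 to 3 when 1 array was left out (0 without day 15 Olig2cre/DA-Cat replicate 3 or wild-type replicate 1, and 1 without day 15 Olig2cre/DA-Cat replicate 1 or wild-type replicate 2). The cause of these changes was not tested.

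The replicate block gave 8 calls at day 4, 4 at day 15, 2 for the change between days, 26 for day in Olig2cre/DA-Cat and 23 in wild type. Deviations of same-numbered arrays correlated at 0.0314 to 0.297 at day 4 and 0.0154 to 0.175 at day 15. Those of arrays with different numbers correlated at -0.307 to 0.0499 at day 4 and -0.217 to 0.0786 at day 15. Of the 12 arrays, 9 correlated best with their own number. The numbers were not taken as pairs in the main fit, and whether they mark pairs is unsettled. With 3 arrays per group, 67% of changes of 0.5 were recovered in the day 4 simulation, whose values were independent, unlike those of the real arrays.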
